A study of Mus musculus with 10 samples.

Results

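The matrix proteases of the MMP and ADAMTS families and the TIMPs that inhibit them were examined in the thoracic aorta of mice lacking Prdm16 in smooth muscle. The genes were chosen by symbol alone (Mmp or Adamts followed by a number, and Timp1 to Timp4), which gave 46 genes of 55426 in the deposited table, with 23 MMPs, 19 ADAMTS proteases, and 4 TIMPs. RNA-Seq was performed on 3 thoracic aorta samples of control and 3 of Prdm16SMKO mice, with 1 library per sample (called an aorta here), and the values were deposited as TPM, a level relative to transcript length and to all transcripts of the same library. ChIP-Seq with an anti-Flag antibody was performed in primary vascular fibroblasts given lentivirus with Flag-tagged PRDM16 or with vector alone, with 1 library each.

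The control mice carried floxed Prdm16 alleles without Cre (Prdm16 f/f). The Prdm16SMKO mice carried the same floxed alleles with SMMHC-CreERT2, in which the Myh11 promoter drives a tamoxifen-inducible Cre in smooth muscle cells. Tamoxifen was given for 5 days at 8 weeks of age and followed by 2 weeks of washout. The mice were kept on a C57BL/6J background and the Cre transgene lies on the Y chromosome. The age of these mice at harvest, the hour of harvest, and whether the controls received tamoxifen are not given in the sources used here. The groups differ in Cre as well as in Prdm16, so effects of Cre and of Prdm16 loss cannot be told apart here. An effect of tamoxifen was not tested. The aorta also holds endothelial cells, fibroblasts, and other cells in which the Myh11 promoter is not active and Prdm16 is left intact. The fibroblasts were wild type, were infected over 48 hours, and went through 1 week of selection in puromycin at 2 μg/mL.

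MMPs and ADAMTS proteases are zinc metalloproteinases that are made as inactive precursors and cleave the proteins of the extracellular matrix. MMPs cut collagens, gelatin, elastin, and many cell surface proteins, whereas ADAMTS proteases carry thrombospondin repeats that hold them in the matrix, where they cut proteoglycans, trim procollagens, or act on microfibrils. TIMPs bind the active site of these enzymes, and the balance of proteases and TIMPs is known to shape the elastic wall of the aorta.

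Genes with a mean of at least 0.5 TPM over the 6 aortas were tested with limma on log2(TPM + 0.1), and P values were adjusted over all 15668 genes that passed. A gene was called at an adjusted P under 0.05, and the groups were said not to overlap when all 3 Prdm16SMKO aortas lay below or above all 3 control aortas. With 3 aortas against 3 an exact permutation test of a single gene cannot go below P = 0.1, so single-gene tests rest on the fit across all genes. Of all genes tested, 1.07% were called, with 0.683% lower and 0.389% higher in Prdm16SMKO aortas. TPM hold no counts, so the depth behind a low value is unknown here, and nothing in the labels says whether the aortas were single animals or pools.

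The 6 libraries had 13331 to 14007 genes at 1 TPM or above, a top gene at 20.2% to 28.2% of all TPM, and mitochondrial transcripts at 14.7% to 26.5%. All 8 smooth muscle markers listed, from Acta2 to Myocd, passed the TPM filter, and their summed TPM were 20790 to 24250 in the control aortas and 13890 to 17930 in the Prdm16SMKO aortas. Of these 8 markers 0 were called, 4 were lower without overlap (Acta2, Tagln, Cnn1, and Lmod1), and Des was higher without overlap. The summed TPM of 4 mesothelial markers was 0.27 to 3.15 in the control aortas and 3.96 to 5.2 in the Prdm16SMKO aortas, with Krt19 higher without overlap and 0 called, and their part in the results was not tested. Of 8 fibroblast, 8 macrophage, and 8 endothelial markers 0 were called. Only Cldn5, an endothelial marker, did not overlap between the groups, and it was lower. The median log2 fold changes of these lists were 0.01, −0.03, and −0.03, in that order. In tissue RNA, fewer cells of a type and less RNA per cell cannot be told apart. The median log2 fold change over all genes tested was −0.12, and rescaling by median ratio moved it to 0.00, so that a gene at −0.12 sat at the centre of all genes. Prdm16 itself, the deleted gene, was at 56.1, 47.6, and 40.3 TPM in control and 23.3, 33.3, and 23.4 TPM in Prdm16SMKO aortas (log2 fold change −0.85, SE 0.18, limma adjusted P = 0.0725), and its groups did not overlap. Prdm16 passed the threshold without Prdm16SMKO aorta 2 (adjusted P = 0.0398) and after both rescalings (0.0232 by median ratio and 0.0335 by quantile normalization).

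PRDM16 is a zinc finger protein that binds DNA and acts with cofactors to raise or lower transcription. A promoter peak was counted when the centre of a PRDM16 peak lay within 2 kb of a start site of a curated RefSeq transcript on GRCm38. Of the 46 genes, 21 had a promoter peak, and they shared 32 such peaks, of which 25 had their centre downstream of the start site and 7 upstream. At these 46 genes the vector list, with 67 peaks in all, had 0 promoter peaks. Among the 29 genes that passed the TPM filter, 19 (65.5%) had a promoter peak, and 43.4% of the 13275 tested genes with a curated RefSeq transcript had one.

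The PRDM16 peaks are shown here for 4 genes, for Mmp28 as the gene called in the aorta, for Adamts14 and Adamts2 as procollagen proteases whose groups lay apart in opposite directions, and for Adamts5, which had the strongest promoter peak of these genes. Each line gives the plus strand of GRCm38 from the RefSeq genome, without untranslated bases, with every CG dinucleotide in capitals. The first runs across the end of coding exon 1 into intron 1 of Mmp28, the second lies just upstream of the start site of Adamts14, the third lies in intron 1 of Adamts2, and the fourth lies in coding exon 1 of Adamts5 beneath its second peak.
Mmp28, chr11:83462725-83462825: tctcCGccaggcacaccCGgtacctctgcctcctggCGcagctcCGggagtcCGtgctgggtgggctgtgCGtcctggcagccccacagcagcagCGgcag
Adamts14, chr10:61273420-61273489: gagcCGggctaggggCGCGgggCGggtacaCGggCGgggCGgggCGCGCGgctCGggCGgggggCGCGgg
Adamts2, chr11:50602606-50602706: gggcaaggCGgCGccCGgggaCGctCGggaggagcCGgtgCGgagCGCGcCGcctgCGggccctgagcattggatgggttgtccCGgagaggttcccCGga
Adamts5, chr16:85899491-85899591: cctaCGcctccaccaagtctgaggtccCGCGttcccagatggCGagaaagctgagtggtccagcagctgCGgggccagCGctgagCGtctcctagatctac
The Adamts14 stretch was the densest, with 14 CG dinucleotides in 70 bases and a GC content of 90.0%, against 13 in 101 bases for Adamts2 and 7 in 101 bases for Mmp28 and for Adamts5.

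The 301-bp windows around the 32 summits had a median GC content of 63.8% and a median of 21 CG dinucleotides, and the 11258 PRDM16 peaks with a window on assembled chromosomes had medians of 63.1% and 19. Motifs were searched by their letters on both strands, and none of the 4 motifs contains another. The GC box GGGCGG was in 10 of the 32 windows, in 44.1% of all peak windows, and in 35.7% of the 300-bp RefSeq promoters. The GATA core AGATAA was in 1 of the 32 windows, against 6.49% of all peak windows and 11.2% of promoters. The E-box CACGTG was in 1 window, against 5.12% and 7.15%, and the AP-1 site TGANTCA was in 0 windows, against 7.43% and 7.81%. A match says only that the letters are present.

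**Figure D1:**
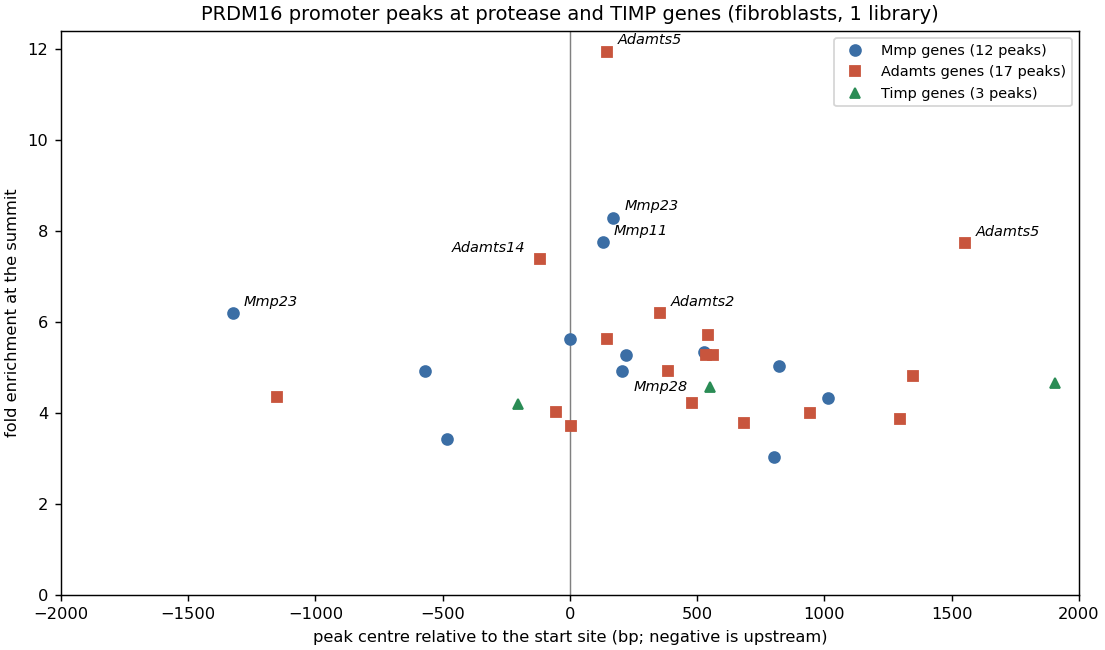
Position and strength of the 32 PRDM16 promoter peaks at 21 protease and TIMP genes in fibroblasts. The x axis gives the distance of each peak centre from the nearest RefSeq start site in bp (negative is upstream), the y axis gives the fold enrichment at the summit, and each symbol is 1 peak. The peaks of Adamts5 (11.95), Mmp23 (8.30), Mmp11 (7.75), and Adamts14 (7.38) stand highest, and most centres lie downstream of the start site.

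Fold enrichment of the 32 peaks ranged from 3.03 to 11.95 with a median of 4.92, and the whole PRDM16 list of 11271 peaks had a median of 5.27. The strongest peak was at Adamts5 (chr16:85900618-85901345, fold enrichment 11.95), with 98.8% of the list at or below its value. A second peak at Adamts5 (chr16:85898916-85900233) had a fold enrichment of 7.73. Mmp23 had 4 promoter peaks, Timp2 had 3, and 8 of the 46 genes had 2 or more. Adamts2 had 2 promoter peaks and 6 further peaks in its introns 2 and 3, between 20.9 and 123.9 kb downstream of its start site. Mmp14 and Mmp24 each had 1 further intronic peak and Timp2 had 2. These peaks were called in 1 fibroblast library with added PRDM16, and binding in aortic smooth muscle was not measured.

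In the aorta, 29 of the 46 genes passed the TPM filter (11 MMPs, 14 ADAMTS proteases, and all 4 TIMPs). By the mean over the 6 aortas, Timp3, Timp2, and Mmp23 stood above 100 TPM, 13 genes were at 10 TPM or above, and 16 lay below 10 TPM. Timp2 and Timp3 together made up 53.6% to 57.8% of the TPM of all 46 genes in every aorta. The 17 genes under the filter did not exceed 0.8 TPM in any aorta, and 5 of them (Mmp1a, Mmp1b, Mmp7, Mmp10, and Mmp20) were listed at 0 in all 6.

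**Figure D2:**
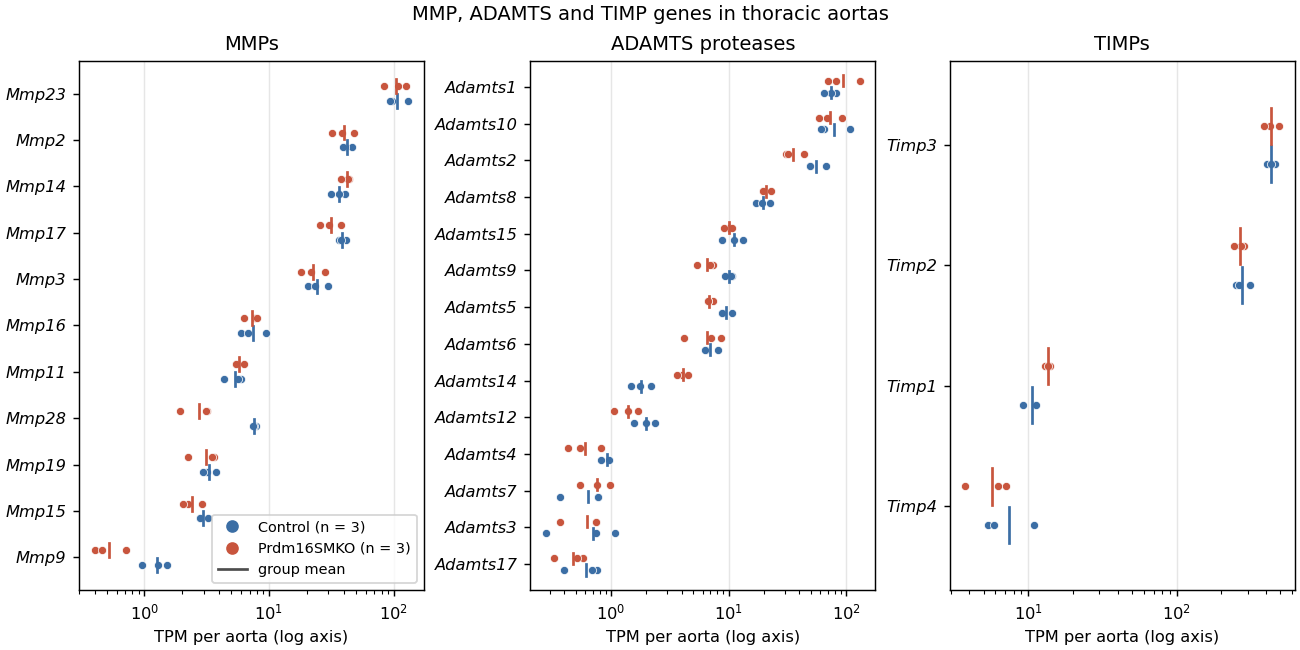
TPM of the 29 MMP, ADAMTS, and TIMP genes that passed the filter, in each aorta. The x axis is TPM on a log scale, each point is 1 aorta (blue for Control and red for Prdm16SMKO, n = 3 each), and each vertical bar is a group mean. The groups are apart at Mmp28, Mmp9, Adamts2, Adamts9, Adamts5, Adamts14, and Timp1, and Timp3 and Timp2 stand far above the other TIMPs.

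Of these 29 genes, 1 was called (Mmp28, lower), and 7 had an unadjusted limma P under 0.05 (24.1% of 29, against 12.7% of all genes tested). The groups did not overlap for 5 genes that were lower in Prdm16SMKO aortas (17.2% of 29, namely Mmp28, Mmp9, Adamts2, Adamts9, and Adamts5), against 14.9% of all genes tested. They did not overlap for 2 genes that were higher (6.90% of 29, namely Adamts14 and Timp1), against 4.08% of all genes tested. With TPM as deposited these shares were near those of all genes. After rescaling by median ratio, 5 genes were lower and 5 higher without overlap (17.2% of 29 each), against 11.0% and 10.7% of all genes tested. The median log2 fold change over the 29 genes was −0.11, with 21 below 0 and 8 above 0 with TPM as deposited and 13 below and 16 above after rescaling by median ratio.

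**Figure D3:**
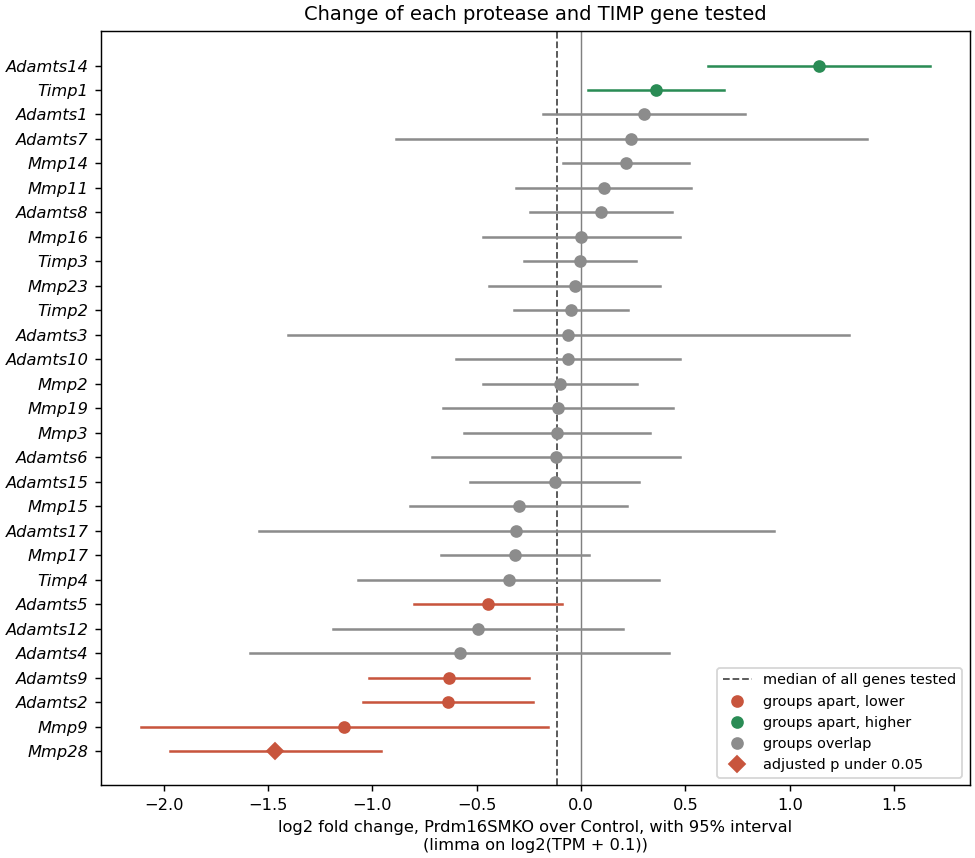
Log2 fold change (Prdm16SMKO over Control) of the 29 genes tested, from limma on log2(TPM + 0.1). Each point is a gene with its 95% interval, the dashed line is the median of all genes tested (−0.12), and the diamond is the gene called. Mmp28 (−1.46) and Adamts14 (1.14) lie at the ends, and the intervals of the 22 genes whose groups overlapped include 0.

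Mmp28 (ENSMUSG00000020682, chr11:83440768-83463040, minus strand) encodes epilysin, a secreted MMP with a cleavage site for furin that lets it leave the cell already active. Its level was 7.93, 7.59, and 7.39 TPM in control and 3.20, 3.15, and 1.95 TPM in Prdm16SMKO aortas, so that every Prdm16SMKO aorta lay below every control aorta. On average the Prdm16SMKO aortas reached 36.2% of the control level (log2 fold change −1.46, SE 0.22, limma adjusted P = 0.0198, 95% interval −1.97 to −0.96). The call was lost when any single control aorta was left out, with adjusted P values of 0.0821, 0.0742, and 0.0783 without control aorta 1, 2, and 3, and the log2 fold change then lay between −1.49 and −1.44. Its PRDM16 promoter peak (chr11:83462665-83463003, fold enrichment 4.92) was of middling strength, with 45.99% of the list at or below its value, ties included. Its centre lay 206 bp downstream of the start site and its summit in coding exon 1, in the stretch shown above.

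The end of Mmp28 overlaps another gene on the opposite strand. The last of its 8 exons shares 466 bases with 1700020L24Rik (chr11:83437677-83441233, plus strand), 13.3% of a Mmp28 transcript of 3498 bases and all of it in the 3′ untranslated part. 1700020L24Rik, annotated as protein coding, was at 14.7, 17.7, and 10.5 TPM in control and 4.66, 4.56, and 4.03 TPM in Prdm16SMKO aortas (log2 fold change −1.64, SE 0.21, limma adjusted P = 0.00836), called lower as well. The nearest PRDM16 peak to its start site was 3.04 kb away. The library kit does not mark strand, so reads from the shared bases cannot be assigned to one of these genes, and how much of the Mmp28 value they carry was not tested.

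**Figure D4:**
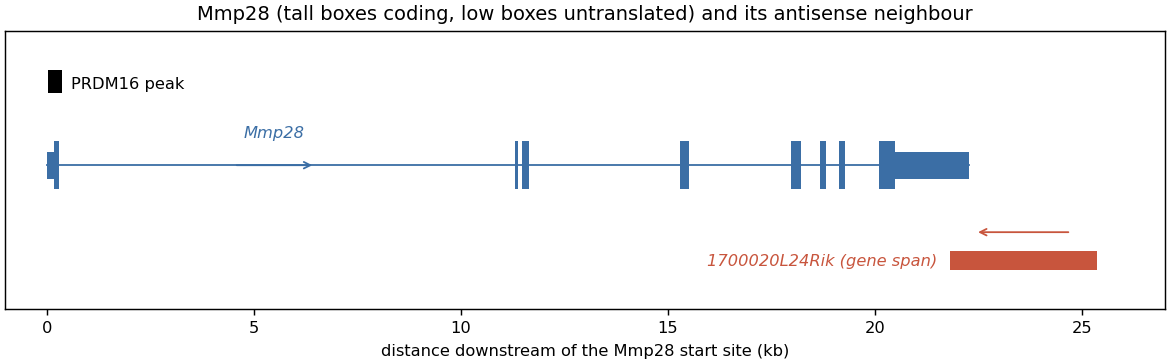
Mmp28 and 1700020L24Rik drawn to scale by distance from the Mmp28 start site in kb. Tall blue boxes are coding and low blue boxes untranslated parts of the 8 Mmp28 exons, the red box is the span of 1700020L24Rik on the opposite strand, arrows give the direction of transcription, and the black box is the PRDM16 peak. The genes meet only over the 466 bases at the end of Mmp28, and the peak lies at its start.

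The other MMPs of mixed type had groups that overlapped. Mmp23, a membrane-tethered MMP with an ion channel-modulating domain, was the most abundant MMP, at 131, 97.5, and 93.7 TPM in control and 107, 125, and 83.5 TPM in Prdm16SMKO aortas (log2 fold change −0.03, SE 0.18, limma adjusted P = 0.968). It lies 1.335 Mb from Prdm16 on chromosome 4. Of the 253 tested genes within 20 Mb of Prdm16, 8.3% were called, against 1.07% of all genes tested. The cause of this difference was not tested. At Mmp23 all 4 promoter peaks lay within 1.33 kb of a start site, the strongest at chr4:155652974-155653265 (fold enrichment, 8.30), and its groups overlapped. Mmp19 was at 3.77, 3.19, and 2.97 TPM in control and 3.59, 2.26, and 3.46 TPM in Prdm16SMKO aortas (log2 fold change −0.11, SE 0.24, limma adjusted P = 0.889), also with overlap, and shares 789 exon bases with Tmem198b on the opposite strand.

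The gelatinases Mmp2 and Mmp9 cleave denatured collagen and basement membrane collagen. Mmp9 (ENSMUSG00000017737, chr2:164948219-164955850, plus strand) was low, at 1.29, 0.96, and 1.53 TPM in control and 0.71, 0.40, and 0.46 TPM in Prdm16SMKO aortas, and the groups did not overlap. Its log2 fold change of −1.13 (SE 0.43) did not pass the threshold (limma adjusted P = 0.316). Neutrophils store Mmp9, and the summed TPM of 7 neutrophil markers was 1.72 to 2.95 in the control aortas and 0.57 to 1.6 in the Prdm16SMKO aortas, with Mpo and Ly6g at 0 in every aorta and only 2 of the 7 past the filter. The part of these cells in the Mmp9 values was not tested. Mmp2 was at 46.0, 40.9, and 39.5 TPM in control and 48.5, 32.1, and 38.6 TPM in Prdm16SMKO aortas (log2 fold change −0.10, SE 0.16, limma adjusted P = 0.842), and its sign turned after rescaling by median ratio (0.02). Neither gene had a promoter peak, and the nearest PRDM16 peak was 13.7 kb from the start site of Mmp9 and 157.4 kb from that of Mmp2.

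The membrane-type MMPs are anchored at the cell surface, and Mmp14 is known to activate the Mmp2 precursor together with Timp2. Mmp14 was at 40.6, 31.7, and 36.1 TPM in control and 44.2, 43.3, and 38.1 TPM in Prdm16SMKO aortas (log2 fold change 0.22, SE 0.13, limma adjusted P = 0.538). Only Prdm16SMKO aorta 3, at 38.1 TPM, fell within the control range, and after rescaling by median ratio the groups did not overlap. Mmp17, which is held by a lipid anchor, was at 41.8, 36.2, and 37.8 TPM in control and 30.5, 37.6, and 25.7 TPM in Prdm16SMKO aortas (log2 fold change −0.32, SE 0.16, limma adjusted P = 0.444), with Prdm16SMKO aorta 2 inside the control range. Mmp15 was at 2.78, 3.23, and 2.82 TPM in control and 2.23, 2.05, and 2.90 TPM in Prdm16SMKO aortas (log2 fold change −0.30, SE 0.23, limma adjusted P = 0.629) and overlapped as well. Mmp16 was at 9.51, 5.92, and 6.81 TPM in control and 7.68, 6.29, and 7.97 TPM in Prdm16SMKO aortas (log2 fold change 0.00, SE 0.21, limma adjusted P = 0.999), the value closest to 0 of all genes described here. Promoter peaks were present at Mmp14 (2 peaks, highest fold enrichment, 5.04), Mmp15 (5.34), and Mmp16 (5.63, with its centre 1 bp from the start site), and Mmp17 had none within 82.95 kb.

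The stromelysins cleave proteoglycans and activate other MMPs. Mmp3 was at 29.5, 20.7, and 23.2 TPM in control and 28.3, 18.1, and 21.8 TPM in Prdm16SMKO aortas (log2 fold change −0.11, SE 0.20, limma adjusted P = 0.853), and its groups overlapped. It is the only gene past the filter in a cluster of 10 MMP genes that spans 427.1 kb of chromosome 9 (chr9:7272514-7699585), and the cluster held no PRDM16 peak within 2 kb of a start site. Mmp11, which is activated by furin inside the cell, was at 5.99, 5.68, and 4.39 TPM in control and 6.35, 5.46, and 5.42 TPM in Prdm16SMKO aortas (log2 fold change 0.11, SE 0.19, limma adjusted P = 0.852), and had 2 promoter peaks, with the stronger in coding exon 1 (chr10:75932243-75932502, fold enrichment 7.75). The collagenases Mmp1a, Mmp1b, Mmp8, and Mmp13 did not exceed 0.08 TPM in any aorta. Mmp12, the macrophage elastase, stayed under the filter, at 0.30, 0, and 0.16 TPM in control and 0.80, 0.25, and 0.60 TPM in Prdm16SMKO aortas.

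The procollagen N-proteinases remove the amino-terminal propeptide from fibrillar procollagens, and the groups of the main members lay apart in opposite directions. Adamts2 (ENSMUSG00000036545, chr11:50602085-50807573, plus strand) was at 67.9, 49.5, and 49.0 TPM in control and 43.5, 31.0, and 32.2 TPM in Prdm16SMKO aortas. Its groups did not overlap and its mean was 64.2% of that in controls (log2 fold change −0.64, SE 0.18, limma adjusted P = 0.169). Adamts14 (ENSMUSG00000059901, chr10:61197112-61273419, minus strand) was at 2.18, 1.47, and 1.75 TPM in control and 3.99, 4.53, and 3.65 TPM in Prdm16SMKO aortas, so that the lowest Prdm16SMKO aorta lay above the highest control aorta, with a log2 fold change of 1.14 (SE 0.23, 95% interval 0.61 to 1.67). It was not called (limma adjusted P = 0.0649), but passed after rescaling by median ratio (adjusted P = 0.0165) and after quantile normalization (0.0218). The paper's table of differentially expressed genes with a PRDM16 promoter peak lists Adamts14 as higher and Adamts2 and Mmp28 as lower. A gene not called here can therefore be among the genes that the paper lists. The paper does not name its test, and genes without a promoter peak could not enter that table. Adamts5 and Adamts9, which had promoter peaks here, are not in it. Adamts3, which also processes the lymphatic growth factor VEGF-C, was at 1.08, 0.28, and 0.75 TPM in control and 0.37, 0.75, and 0.74 TPM in Prdm16SMKO aortas (log2 fold change −0.06, SE 0.59, limma adjusted P = 0.981).

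Because Adamts2 was the most abundant, the summed TPM of these 3 proteases followed it, at 71.2, 51.3, and 51.5 in controls and 47.9, 36.3, and 36.6 in Prdm16SMKO aortas. The sums did not overlap with TPM as deposited and overlapped after rescaling by median ratio, where they were 50.2 to 61.2 and 34.5 to 50.4. All 3 genes had promoter peaks. At Adamts14 the summit lay 20 bp upstream of the start site (chr10:61273264-61273810, fold enrichment 7.38), within the CG-rich stretch shown above. At Adamts2 the nearer peak (chr11:50602091-50602790, fold enrichment 6.20) had its summit in intron 1, and at Adamts3 the fold enrichment was up to 5.63.

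The proteoglycanases cleave versican and aggrecan, the large proteoglycans that swell the matrix. Adamts1, the most abundant, was at 82.1, 74.6, and 65.3 TPM in control and 82.3, 130.1, and 70.2 TPM in Prdm16SMKO aortas (log2 fold change 0.30, SE 0.21, limma adjusted P = 0.591). Prdm16SMKO aorta 2 stood alone at 130.1 TPM, and the 95% interval was −0.18 to 0.79. The list of immediate-early genes such as Fos and Egr1, which respond to handling of tissue, had summed TPM of 362.1 to 622 in the control aortas and 270 to 407.5 in the Prdm16SMKO aortas, but its 8 members differed in direction. Nr4a1 was called lower, Jun and Atf3 were lower and Ier2 higher without overlap, and Fosb, Egr1, Junb, and Ier2 were highest of all 6 in Prdm16SMKO aorta 2. Their part in the Adamts1 values was not tested. Adamts8 was at 22.6, 17.0, and 19.1 TPM in control and 19.7, 23.1, and 19.5 TPM in Prdm16SMKO aortas (log2 fold change 0.09, SE 0.15, limma adjusted P = 0.841), and its neighbour Adamts15, whose start site lies 20.1 kb away, was at 13.4, 11.04, and 8.81 TPM in control and 10.1, 10.7, and 9.20 TPM in Prdm16SMKO aortas (log2 fold change −0.13, SE 0.18, limma adjusted P = 0.815). Both overlapped between the groups.

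Adamts9 and Adamts5 were lower in every Prdm16SMKO aorta than in any control aorta, without passing the threshold. Adamts9 (ENSMUSG00000030022, chr6:92772700-92943534, minus strand), which cleaves versican in vessels and heart valves, was at 10.7, 10.5, and 9.30 TPM in control and 5.42, 7.35, and 6.93 TPM in Prdm16SMKO aortas (log2 fold change −0.63, SE 0.17, limma adjusted P = 0.146). Exons of Adamts9 share bases with A730049H05Rik and Gm15737 on the opposite strand, whose means were below 1 TPM in both groups. Adamts5 (ENSMUSG00000022894, chr16:85858157-85901125, minus strand), the main aggrecan-cleaving enzyme of mouse cartilage, was at 10.7, 8.82, and 8.73 TPM in control and 7.34, 6.63, and 6.62 TPM in Prdm16SMKO aortas (log2 fold change −0.45, SE 0.16, limma adjusted P = 0.268). Adamts4, the related aggrecanase, was near the filter, at 0.82, 0.96, and 0.97 TPM in control and 0.82, 0.54, and 0.43 TPM in Prdm16SMKO aortas (log2 fold change −0.58, SE 0.44, limma adjusted P = 0.626). The summed TPM of 8 cartilage markers was 37.8 to 48.4 in the control aortas and 20.3 to 30.1 in the Prdm16SMKO aortas. Of the 8 markers 5 passed the filter. Matn1 was at 0 in every aorta, and Matn3 and Cnmd had control means of 0.09 and 0.05 TPM. Comp and Acan, also among the substrates described below, had the highest control levels (means of 24.8 and 9.02 TPM). Both were lower without overlap, as was Sox9. Col2a1 (control mean of 0.80 TPM) and Chad (4.47 TPM) overlapped between the groups. The part of these 8 markers in the aggrecanase values was not tested.

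All 6 proteoglycanases past the filter had a promoter peak. The peaks of Adamts5 are described above. Adamts1, whose start site lies 98.0 kb from that of Adamts5 on chromosome 16, had 2 (fold enrichment, 5.27 and 4.34). The single peaks at Adamts8 (5.72), Adamts9 (4.03), Adamts4 (4.01), and Adamts15 (3.72) were weaker than those of Adamts5, and the Adamts15 peak was centred 4 bp from the start site. Adamts20, which was at 0.20, 0.24, and 0.06 TPM in control and 0.24, 0.14, and 0.10 TPM in Prdm16SMKO aortas, had a peak as well (4.22), so that a promoter peak in the fibroblast library was also present at a gene close to 0 in the aorta.

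Among the remaining ADAMTS proteases, Adamts10 was the most abundant. Adamts10 acts on fibrillin microfibrils, and was at 108, 65.0, and 61.2 TPM in control and 68.9, 92.7, and 59.1 TPM in Prdm16SMKO aortas (log2 fold change −0.06, SE 0.24, limma adjusted P = 0.946) with a promoter peak of fold enrichment 3.87. Control aorta 1 was the highest of all 6, and the groups overlapped. Adamts7 and Adamts12 cleave cartilage oligomeric matrix protein (COMP). Adamts7 was at 0.77, 0.78, and 0.37 TPM in control and 0.54, 0.98, and 0.76 TPM in Prdm16SMKO aortas (log2 fold change 0.24, SE 0.50, limma adjusted P = 0.882), with a promoter peak of fold enrichment 5.27, and Adamts12 had means of 1.98 ± 0.41 TPM in the control aortas and 1.38 ± 0.32 TPM in the Prdm16SMKO aortas (SD, n = 3 each) with no promoter peak. Adamts6 and Adamts17 had overlapping groups, with means of 6.91 ± 1.00 and 6.58 ± 2.23 TPM for Adamts6 and of 0.62 ± 0.19 and 0.47 ± 0.13 TPM for Adamts17 (control and Prdm16SMKO, SD, n = 3 each). Adamts13, which cleaves von Willebrand factor, Adamts16, Adamts18, and Adamts19 were under the filter, and of these Adamts18 had a promoter peak (fold enrichment, 4.92).

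TIMPs bind active metalloproteinases, and their summed TPM overlapped between the groups. Timp3, which binds to the matrix and also inhibits ADAMTS proteases, was at 462, 406, and 433 TPM in control and 425, 488, and 385 TPM in Prdm16SMKO aortas (log2 fold change −0.01, SE 0.12, limma adjusted P = 0.991). Timp2 was at 312, 251, and 263 TPM in control and 282, 272, and 242 TPM in Prdm16SMKO aortas (log2 fold change −0.05, SE 0.12, limma adjusted P = 0.907). The 95% intervals were −0.27 to 0.26 for Timp3 and −0.32 to 0.22 for Timp2, the narrowest ranges among genes whose groups overlapped. Timp1 (ENSMUSG00000001131, chrX:20870166-20874737, plus strand) was at 11.1, 9.23, and 11.3 TPM in control and 13.0, 14.0, and 13.6 TPM in Prdm16SMKO aortas, higher in every Prdm16SMKO aorta, with a mean of 128% of that in controls (log2 fold change 0.36, SE 0.14, limma adjusted P = 0.342). Timp4 was at 5.39, 10.97, and 5.85 TPM in control and 3.77, 6.24, and 7.06 TPM in Prdm16SMKO aortas (log2 fold change −0.35, SE 0.32, limma adjusted P = 0.691), with control aorta 2 at 10.97 TPM the highest. Adipocytes express Timp4, and their 8 markers summed to 698.7 to 2412 TPM in the control aortas and 663.8 to 1463 TPM in the Prdm16SMKO aortas. Their part in the Timp4 values was not tested.

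Among TIMPs, only Timp2 had promoter peaks, and the nearest PRDM16 peaks were 61.4 kb from Timp4, 138.2 kb from Timp3, and 578.3 kb from Timp1. Timp3 shares 1733 exon bases with Syn3 on the opposite strand, and Syn3 was at 2.29 and 2.12 TPM on average in the control and Prdm16SMKO aortas. The ratio of summed TIMP TPM to summed MMP and ADAMTS TPM, which does not depend on scaling of the library, was 1.21, 1.35, and 1.45 in controls and 1.35, 1.31, and 1.45 in Prdm16SMKO aortas. The ratios thus overlapped between the groups, and the lowest was in a control aorta. The sums of MMPs (254.1 to 321.2 and 231 to 284.1 TPM), of ADAMTS proteases (234.1 to 331.9 and 215.2 to 319.2 TPM), and of TIMPs (677.9 to 790.1 and 648.3 to 780.7 TPM) overlapped between control and Prdm16SMKO aortas, and they overlapped after rescaling too.

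The 19 tested genes with a promoter peak were compared with all genes that had one. The groups did not overlap for 4 of the 19 in the lower direction (21.1%, namely Mmp28, Adamts2, Adamts9, and Adamts5), against 17.5% of the 5755 tested genes with a promoter peak, and for 1 in the higher direction (5.26%, namely Adamts14), against 4.24%. Their median log2 fold change was −0.06, and that of the 5755 genes was −0.11. Of the 10 tested genes without a promoter peak, 1 was lower without overlap (Mmp9) and 1 higher (Timp1), against 15.6% and 3.75% of the 7520 tested genes without one. Their median was −0.22, and that of the 7520 genes was −0.12. Peaks were thus found at Adamts2, which was lower, at Adamts14, which was higher, and at genes such as Mmp23 and Timp2 whose groups overlapped.

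Other proteolytic systems of the vessel wall were given by fixed lists. In the plasminogen system, whose product plasmin activates MMP precursors, 1 of 7 tested genes was called, against 1.07% of all genes tested. Plat, the tissue-type plasminogen activator, was at 30.2, 26.1, and 30.2 TPM in control and 62.6, 63.9, and 61.4 TPM in Prdm16SMKO aortas (log2 fold change 1.12, SE 0.12, limma adjusted P = 0.00387), and was called under each of the 14 alternatives tried. Plg, the precursor of plasmin, was at or below 0.08 TPM in every aorta. The median of the list was 0.13.

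Of 6 tested genes among MMP activators and inhibitors other than TIMPs, 0 were called. The groups did not overlap for Bsg, an inducer of MMPs (mean of 324.9 and 250.3 TPM, log2 fold change −0.37), for Furin, the protease that activates several precursors (mean of 37.5 and 27.7 TPM, −0.43), and for the proteoglycan Spock2 (mean of 6.09 and 10.2 TPM, 0.71). The limma adjusted P values were 0.168, 0.233, and 0.221. Among 7 ADAMTS-like proteins, which lack the catalytic domain, 0 were called with TPM as deposited, and Adamtsl3 (mean of 23.3 and 13.4 TPM, −0.80, limma adjusted P = 0.0845) and Adamtsl4 (mean of 17.1 and 12.8 TPM, −0.42, limma adjusted P = 0.252) were lower without overlap. Adamtsl3 was called after both rescalings. Adam19 (−0.67) and Adam17 (−0.35), membrane proteases that shed cell surface proteins, and Pcolce2 (−0.35), an enhancer of procollagen processing, were lower without overlap and not called (limma adjusted P = 0.170, 0.447, and 0.381). They were 2 of 10 tested genes in the membrane ADAM list and 1 of 3 in the list of astacin proteases and enhancers. Among 9 tested cathepsins and cystatins, 0 were called with TPM as deposited, 4 were lower without overlap, and 1 was higher. Of all genes tested, 14.9% were lower and 4.08% higher without overlap, which is the share to set beside each of these short lists. Of these, Ctsc (−0.53) and Ctsb (−0.44) were lower and Cst3 (0.31) was higher without overlap (limma adjusted P = 0.244, 0.0979, and 0.233), and Ctsd (−0.16) and Ctsa (−0.23) were lower as well. After quantile normalization Ctsb and Cst3 were called.

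Several matrix proteins that these enzymes cut were called lower. Of 15 tested substrates, 4 were called, all lower, against 0.683% of all genes tested. The substrate list, like the others, was chosen with earlier results of these data known, so these shares describe the list and are not independent support. Without overlap 9 were lower and 1, Thbs1, was higher, against 14.9% and 4.08% of all genes tested. After either rescaling 7 were called lower, with Fn1, Acan, and Bgn added. The median log2 fold change was −0.56, against −0.11 for the proteases and TIMPs and −0.12 for all genes tested, and it was −0.45 after rescaling by median ratio. Eln, the elastin of the elastic lamellae, was at 4018, 3156, and 2850.4 TPM in control and 771, 965, and 774 TPM in Prdm16SMKO aortas (log2 fold change −1.99, SE 0.15, limma adjusted P = 0.00115). Comp was at 27.9, 25.3, and 21.4 TPM in control and 13.2, 11.7, and 12.3 TPM in Prdm16SMKO aortas (log2 fold change −0.99, SE 0.14, limma adjusted P = 0.0153), and Col3a1, a fibrillar collagen, was at 865, 598, and 717 TPM in control and 445, 373, and 359.8 TPM in Prdm16SMKO aortas (log2 fold change −0.88, SE 0.15, limma adjusted P = 0.0354). Fbn1, the fibrillin of microfibrils, was at 107, 81.7, and 91.9 TPM in control and 57.4, 60.9, and 50.9 TPM in Prdm16SMKO aortas (log2 fold change −0.72, SE 0.13, limma adjusted P = 0.0476). Eln was called under each of the 14 alternatives, Comp under 11, Col3a1 under 8, and Fbn1 under 4. Without any 1 of the 6 aortas Fbn1 was not called (adjusted P = 0.0706 to 0.148), Col3a1 was not called without control aorta 1 or 3 or Prdm16SMKO aorta 2 or 3 (0.0914 to 0.12), and Comp was not called without control aorta 1 or 2 (0.0549 and 0.072). The summed TPM of the substrate list were 8781 to 11140 in the control aortas and 4672 to 5446 in the Prdm16SMKO aortas. No test compared substrates with proteases.

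**Figure D5:**
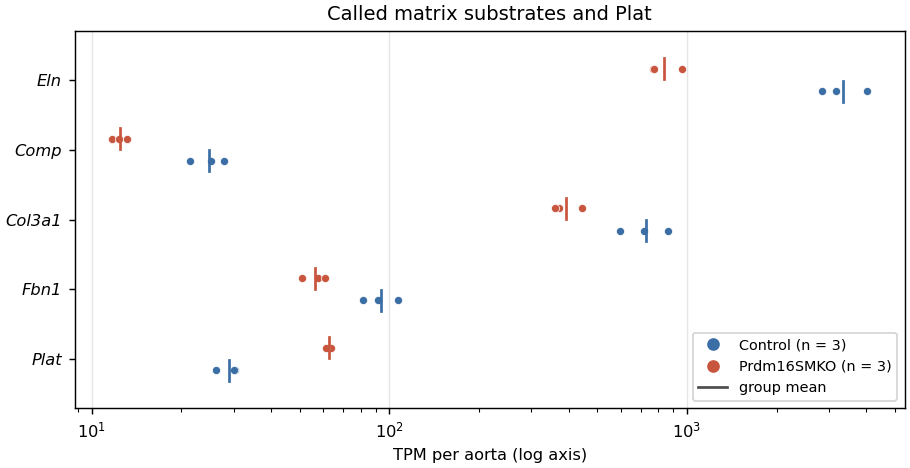
TPM of the called substrate genes (Eln, Comp, Col3a1, and Fbn1) and of Plat in each aorta. The x axis is TPM on a log scale, each point is 1 aorta (blue for Control and red for Prdm16SMKO, n = 3 each), and each vertical bar is a group mean. The 4 substrates lie lower and Plat higher in every Prdm16SMKO aorta than in any control aorta.

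Of the 22 tested proteases and TIMPs whose groups overlapped, 11 had a mean of at least 10 TPM. For these 11 genes the 95% intervals of the log2 fold change lay between −0.67 and 0.79. For all 22 they lay between −1.58 and 1.37, with the widest at genes below 1 TPM such as Adamts3, Adamts4, and Adamts17. Each interval gives the changes that 3 aortas per group did not exclude for that gene, and its width differs from gene to gene. Of the 29 genes, 20 share no exon bases with another gene, and 9 share some with a gene on the opposite strand.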

How the data were processed

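RNA-Seq libraries were made with poly(A) selection and a kit that does not mark strand. The authors deposited TPM per gene (STAR 2.7.8a and RSEM 1.3.3 are named in the submitters' processing notes), and no total count per aorta can be read from TPM. For ChIP-Seq the authors used bowtie2 and GRCm38 for mapping and MACS2 for peaks, library by library, and deposited for each peak the fold enrichment as a ratio, −log10 p, and −log10 q, from which positions, fold enrichment, and −log10 q were used. Peak depth is unknown here, and with 1 library per condition no peak value has a replicate. The IgG libraries were not used here.

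The 2 groups of aortas were compared with limma 3.58.1 under R 4.3.3 (lmFit and eBayes with a trend, no covariates) on log2(TPM + 0.1). Genes below a mean of 0.5 TPM were left out, with Benjamini-Hochberg adjustment and a threshold of 0.05. A fold change on this scale understates the change of low genes. The procedure was tested on simulated data. Curated RefSeq transcripts of GRCm38.p6 and a GENCODE annotation gave start sites and exon overlaps, and all 46 genes matched a RefSeq transcript. Sequences came from the RefSeq genome of the same build.

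The genes and all lists were chosen with earlier results of these data known. Values in every aorta are given for genes that were called, did not overlap, had a mean of at least 10 TPM, or passed the filter with a promoter peak. From related lists, called genes and at most 3 others without overlap are named, except an item that is not reported here, and Ctsd, Ctsa, Fn1, Acan, Bgn, and single markers were named after their values were seen. Alternatives were pseudocounts of 1 and 0.01, other filters, quantile normalization, median-ratio rescaling, a replicate block, eBayes with no trend, each aorta left out, and other promoter windows, peak placements, start sites, and q limits. Nothing in the labels says that the aortas were separate animals, so P values measure the spread between these samples, which may be technical.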

Additional observations from a re-analysis of the deposited data

How the results depend on the processing

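The count of all genes called was 110 with no TPM filter, 411 after rescaling by median ratio (196 higher and 215 lower, against 61 and 107 as reported), 392 after quantile normalization (189 and 203), 48 with eBayes without a trend, and 91 to 141 with 1 aorta left out. The count of protease and TIMP genes called by limma was 0 with no TPM filter (7 genes at an unadjusted P under 0.05) and 0 with eBayes without a trend (8 genes), 2 after rescaling by median ratio or quantile normalization (Mmp28 and Adamts14), and 0 to 1 with 1 aorta left out. Across its 14 alternatives Mmp28 had a log2 fold change of −1.58 to −1.22 and an adjusted P of 0.0146 to 0.0821. The 7 genes whose groups did not overlap became 10 after rescaling by median ratio, which added Mmp14, Adamts1, and Adamts8, all higher, while the share of all genes that were higher without overlap rose from 4.08% to 10.7%. The count of genes with a promoter peak, 21, fell to 7 with a window from 1 kb upstream to 100 bp downstream and to 13 at a q of at most 1e-05, and lay between 18 and 21 under the other peak settings. The cause of these changes was not tested.

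Of 401 log2 fold changes of single protease and TIMP genes under alternatives, 40 changed sign, all in 14 genes, and the adjusted P of those 40 values was at least 0.437. After rescaling by median ratio these were Mmp2 (0.017), Mmp3 (0.0037), Mmp19 (0.0040), Timp2 (0.069), Adamts10 (0.055), Mmp23 (0.087), Adamts3 (0.042), and Timp3 (0.11). After quantile normalization they were Mmp2 (0.049), Mmp3 (0.0055), Timp2 (0.10), Adamts10 (0.082), Mmp23 (0.11), and Timp3 (0.13), and with a pseudocount of 1 Mmp16 (−0.00035). With 1 aorta left out the log2 fold change ranged from −0.28 to 0.019 for Adamts15, −0.0020 to 0.20 for Adamts8, −0.25 to 0.042 for Mmp2, −0.026 to 0.19 for Mmp11, −0.28 to 0.038 for Mmp3, −0.057 to 0.44 for Adamts7, −0.34 to 0.17 for Adamts6, −0.23 to 0.095 for Mmp19, −0.11 to 0.044 for Timp2, −0.24 to 0.20 for Adamts10, −0.16 to 0.13 for Mmp23, −0.53 to 0.29 for Adamts3, −0.10 to 0.074 for Timp3, and −0.14 to 0.19 for Mmp16. With the replicate number as a block, 184 genes were called in all and 1 of the protease and TIMP genes (Mmp28). Over all genes tested, the deviations of aortas of the same number from their group means had correlations of −0.0246, −0.07, and −0.00896. A correlation over all genes cannot show whether the numbers pair the aortas, for instance by litter or day, and the labels do not say. TPM carry no depth, so how far counting error limits genes below 1 TPM is unknown here.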
